A study of Bos taurus with 11 samples.

Results

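The nuclear envelope of bovine blastocysts was examined through 9 genes, *SUN2*, *SUN1*, *LMNA*, *LMNB1*, *LMNB2*, *EMD*, *BANF1*, *TMPO* and *LBR*, chosen by name. RefSeq accessions led to 8 of the 9 in each of 2 deposited tables, with 1 transcript per gene, among the 8576 transcripts of the GATA3 KO table and the 12047 of the CDX2 KO table. *SUN1* was not analysed here. *SUN2* was the starting point because its transcript was among those that fell most in GATA3 KO embryos, and the other genes were listed for their place in the same structure with results of these embryos known. The GATA3 KO values of these genes are therefore given as a description, without a test.

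The embryos were produced in vitro and collected singly as early blastocysts on day 7, with 3 in the WT control group, 4 in the GATA3 KO group and 4 in the CDX2 KO group. Every embryo, the controls included, had received mRNA of BE3 as a zygote. BE3 joins a cytidine deaminase to a Cas9 nickase and, led by a guide RNA, turns C into T, which can write a stop codon into a gene. GATA3 KO zygotes were also given a mix of sgRNAs against *GATA3*, and CDX2 KO zygotes a mix against *CDX2*, both transcription factors of the trophectoderm (TE), the outer epithelium of the blastocyst. The editor acts in a dividing embryo, so cells of an embryo can differ in genotype. The same 3 WT control embryos stand in both tables, each table was normalized on its own, and values were compared only within a table.

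Beneath the inner nuclear membrane lies the lamina, a meshwork of A-type lamins (from *LMNA*) and B-type lamins (from *LMNB1* and *LMNB2*). SUN proteins cross the inner membrane, hold the lamina on one side and nesprins of the outer membrane on the other, and thereby couple the nucleus to the cytoskeleton in what is called the LINC complex. Emerin and the LAP2 proteins carry a LEM domain that binds the small chromatin protein BAF, and LBR ties heterochromatin to the B-type lamins. In mouse embryos and pluripotent cells, B-type lamins and LBR are known to be present early, while A-type lamins accumulate with differentiation.

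Total counts ran from 150057 to 540775 per embryo in the GATA3 KO table, and in the CDX2 KO table from 100731, in KO embryo 3, to 662962. Here 3 counts were taken as the floor of detection, which corresponds to 4.53 to 29.8 CPM. Like the Poisson and Wilson intervals below, this floor covers counting error only, since the reads carry no molecular identifiers. Intervals of fold changes rest on the variation between embryos instead. The targeted *GATA3* transcript lay between 71.3 and 87.6 normalized counts in WT control and between 9.85 and 13.1 in GATA3 KO embryos. *CDX2* lay between 6.88 and 11.1 in WT control and between 1.66 and 4.66 in CDX2 KO embryos, near the floor. Beside the GATA3 KO embryos it lay at 0 to 3.45 in KO and 4.66 to 9.73 in WT control, and GATA3 KO embryos 3, 5 and 6 and WT control embryo 3 held no more than 3 counts of it. *GATA3* lay between 30.3 and 123 in CDX2 KO and between 96.4 and 129 in WT control embryos. Of 12 TE markers, 10 had a row beside the GATA3 KO embryos and 11 beside the CDX2 KO embryos, and both tables listed 6 of 7 markers of epiblast and inner cell mass. Of 8 cumulus cell markers, the GATA3 KO table listed 3, 1 of them with a mean of at least 10, and *GREM1*, *HAS2*, *INHBA*, *PTX3* and *TNFAIP6* were not. Summed, they gave 24.9 to 36.3 normalized counts in WT control but 9.53 to 12.3 in GATA3 KO embryos. With 6 of the 8 listed beside the CDX2 KO embryos, the sum was 37.1 to 60.3 in WT control and 46.7 to 83.3 in CDX2 KO embryos. The part of these cells in the results below was not tested.

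*SUN2* (NM_001102319) was lower in every GATA3 KO embryo than in every WT control embryo. The normalized counts, which are counts divided by a size factor of the embryo, were 25.3, 27.0 and 24.9 in WT control embryos 1, 2 and 3. They were 4.34, 7.32, 9.53 and 5.75 in GATA3 KO embryos 3, 4, 5 and 6, numbered as in the table. The highest KO embryo thus lay far below the lowest control embryo, and the mean fell from 25.7 ± 1.15 (SD, n = 3) to 6.74 ± 2.22 (SD, n = 4). The log2 fold change from limma was -1.83 with a standard error of 0.39, and its 95% interval ran from -2.65 to -1.01. Since *SUN2* was chosen for its fall in these embryos, this value can overstate the fall. The interval is given as a description and is not read as a test. Because each library is a whole blastocyst, fewer cells with *SUN2* RNA and less of it per cell cannot be told apart.

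**Figure D1:**
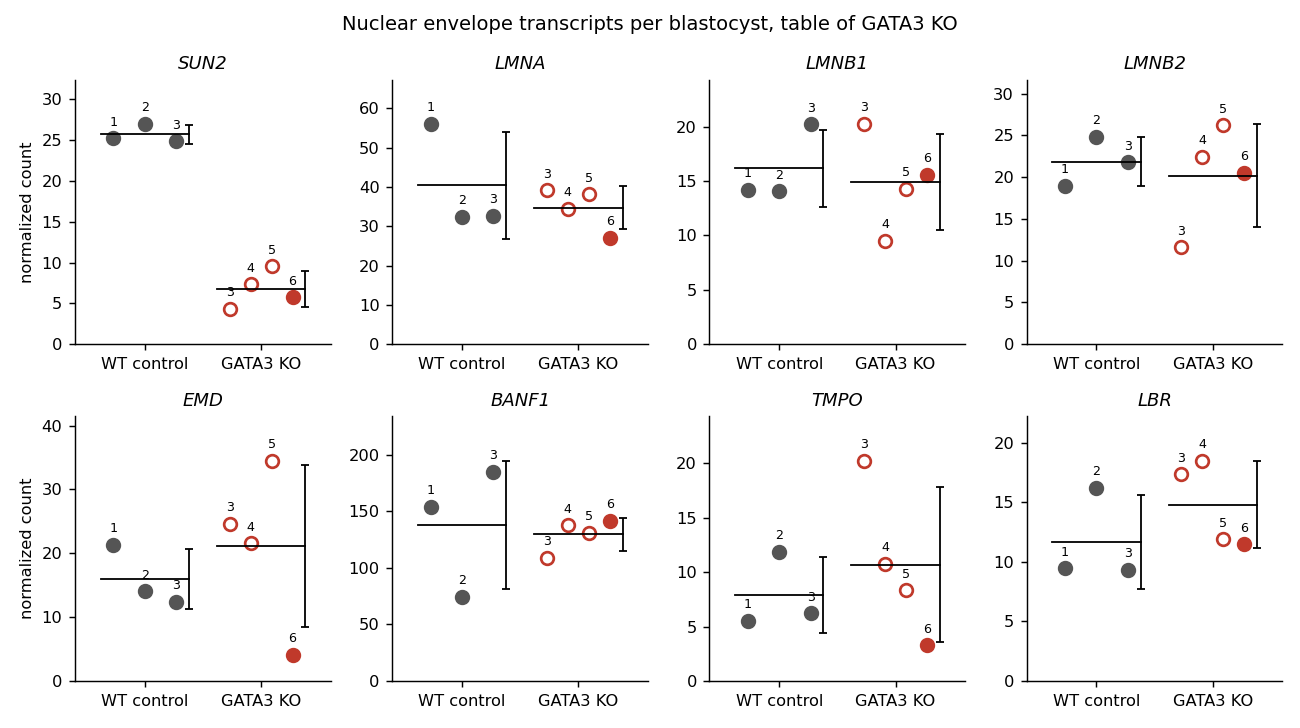
Normalized count (vertical axes, from 0) of 8 nuclear envelope transcripts in each blastocyst of the table of GATA3 KO, with embryo numbers beside the points. Lines show group means and bars the SD, open circles mark embryos with fewer than 3 Y-linked counts; *SUN2* is at 24.9 or more in WT control and at 9.53 or less in GATA3 KO embryos, while every other transcript overlaps between the groups.

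The *SUN2* values rest on few reads. The recovered counts were 32, 25 and 16 in the WT control embryos and 3, 17, 8 and 7 in the GATA3 KO embryos. For the 3 counts of GATA3 KO embryo 3 the exact 95% Poisson interval was 0.619 to 8.77, and for the 16 counts of WT control embryo 3 it was 9.15 to 26.0. The spread of *SUN2* among the control embryos, a coefficient of variation of 4.50%, was smaller than the 21.0% that counting error alone would give, so the SD of this group understates the error of its mean.

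The same *SUN2* counts can be given as a share within each embryo, which restates the chosen difference without the size factors and is no separate evidence of it. *SUN2* made up 8.29%, 12.6% and 7.96% of the counts of the 8 envelope transcripts in WT control embryos 1 to 3. In GATA3 KO embryos 3 to 6 it made up 1.76%, 2.80%, 3.48% and 2.51%. Every KO share was thus under every control share, and the 95% Wilson interval of the highest KO share, 1.77% to 6.71%, overlapped that of the lowest control share, 4.96% to 12.5%. Together the 8 transcripts took between 0.092% and 0.134% of the library in this table, with no such separation of the groups.

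In CDX2 KO embryos the *SUN2* values were spread on both sides of the control range. On the scale of that table, WT control embryos 1 to 3 had 34.9, 35.5 and 33.2 normalized counts. The KO values were 40.4, 30.3, 20.7 and 15.6 in CDX2 KO embryos 2, 3, 4 and 5, so 3 embryos lay below every control embryo and 1 lay above. On the log2 scale the difference was -0.44 with a standard error of 0.42 and a 95% interval from -1.35 to 0.46 (limma, adjusted p = 0.900 over 5719 transcripts by Benjamini-Hochberg). With the Y-linked covariate the value was -1.10, which rests on CDX2 KO embryo 5 alone. The 95% interval of the reported value allows a fall to 0.394 of the control level as well as a rise to 1.37 times it. Of the envelope counts, *SUN2* took 7.76%, 13.0% and 7.95% in the control embryos. The shares in CDX2 KO embryos 2 to 5 were 11.3%, 10.6%, 4.36% and 3.79%. Embryos 4 and 5 thus lay under the control shares, and embryos 2 and 3 among them.

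**Figure D2:**
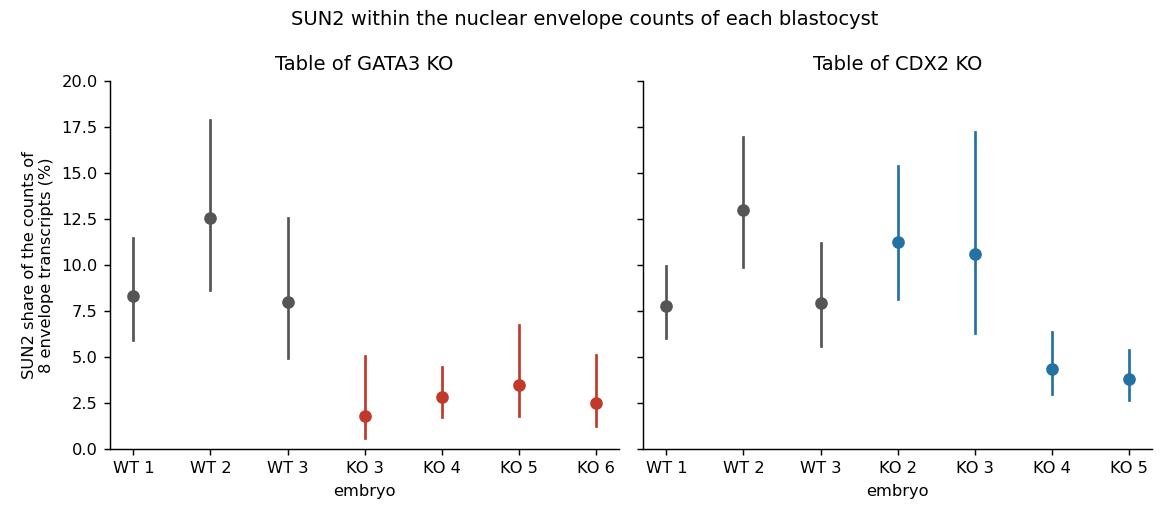
*SUN2* counts as a percentage of the counts of 8 nuclear envelope transcripts in each blastocyst, with 95% Wilson intervals as bars, for both tables. The GATA3 KO embryos lie between 1.76% and 3.48% and the controls of that table at 7.96% or more; CDX2 KO embryos 2 and 3 lie among their controls and embryos 4 and 5 below them.

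**Figure D3:**
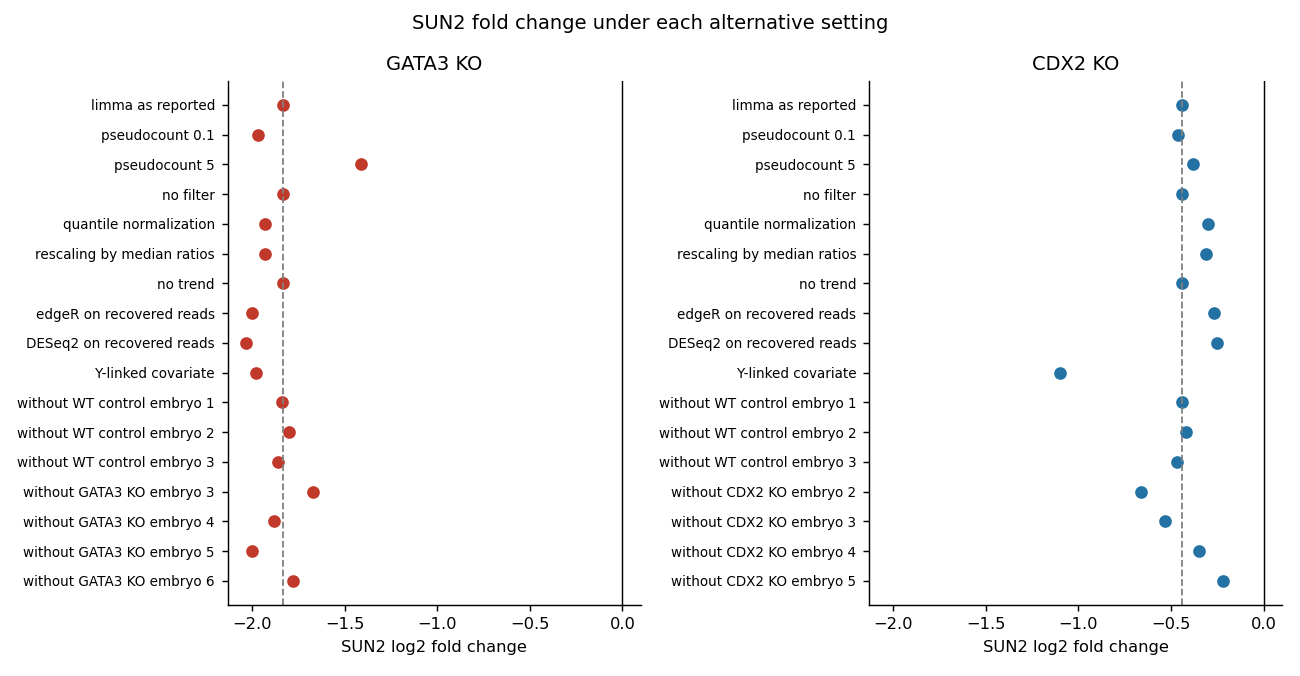
Log2 fold change of *SUN2* (horizontal axes) under each alternative setting and without each embryo in turn, with the value as reported as a dashed line. In GATA3 KO the values run from -2.03 to -1.41, and in CDX2 KO from -1.10 to -0.22.

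The values of all 3 lamin transcripts overlapped between GATA3 KO and WT control embryos. *LMNA* (NM_001034053), which encodes lamins A and C, had normalized counts of 56.0, 32.4 and 32.6 in the WT control embryos and 39.1, 34.5, 38.1 and 27.1 in GATA3 KO embryos 3 to 6. WT control embryo 1 was high, and the KO embryos lay around the other two. The log2 fold change was -0.18 with a standard error of 0.29, and -0.29 relative to the median of all tested transcripts, which was 0.11. Without WT control embryo 1 the log2 fold change turned to 0.08.

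*LMNB1* (NM_001103295), which encodes lamin B1, had 14.2, 14.0 and 20.2 normalized counts in WT control and 20.3, 9.48, 14.3 and 15.6 in GATA3 KO embryos. *LMNB2* (NM_001276353), which encodes lamin B2, had 18.9, 24.9 and 21.8 in WT control and 11.6, 22.4, 26.2 and 20.5 in GATA3 KO embryos. For both B-type lamins the KO embryos spanned the control range on either side. The highest *LMNB1* and the lowest *LMNB2* value of the KO group were both in embryo 3, from 14 and 8 counts. The log2 fold changes were -0.13 for *LMNB1* (standard error 0.35) and -0.16 for *LMNB2* (standard error 0.33). Leaving out single embryos moved them from -0.29 to 0.05 and from -0.30 to 0.07.

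*LMNA*, in the table of CDX2 KO, had 85.0, 37.9 and 45.9 normalized counts in WT control and 46.6, 46.6, 66.3 and 42.4 in CDX2 KO embryos 2 to 5, all within the control range. *LMNB1* had 19.0, 15.8 and 19.5 in WT control and 18.4, 4.66, 23.2 and 31.7 in CDX2 KO embryos. *LMNB2* had 29.2, 30.8 and 28.7 in WT control and 20.8, 60.6, 23.2 and 40.3 in CDX2 KO embryos. The KO embryos varied far more than the controls in both B-type lamins, with a coefficient of variation of 58.0% against 11.1% for *LMNB1* and of 50.8% against 3.80% for *LMNB2*. The spreads of the controls lay below the 21.8% for *LMNB1* and 17.0% for *LMNB2* that counting error alone would give. They therefore understate the error of the control values. In the table of GATA3 KO the same control embryos had 21.7% and 13.5%. The difference in spread was not tested.

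CDX2 KO embryo 3, the shallowest library of the series, held the lowest *LMNB1* and the highest *LMNB2* value, from 2 and 26 counts, and 2 counts are under the floor. The log2 fold changes were -0.09 for *LMNA*, -0.15 for *LMNB1* and 0.16 for *LMNB2*, with standard errors of 0.41, 0.56 and 0.44 (adjusted p = 0.973, 0.968 and 0.954 from limma). Without CDX2 KO embryo 3 those of the B-type lamins changed sign, to 0.38 for *LMNB1* and -0.13 for *LMNB2*.

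**Figure D4:**
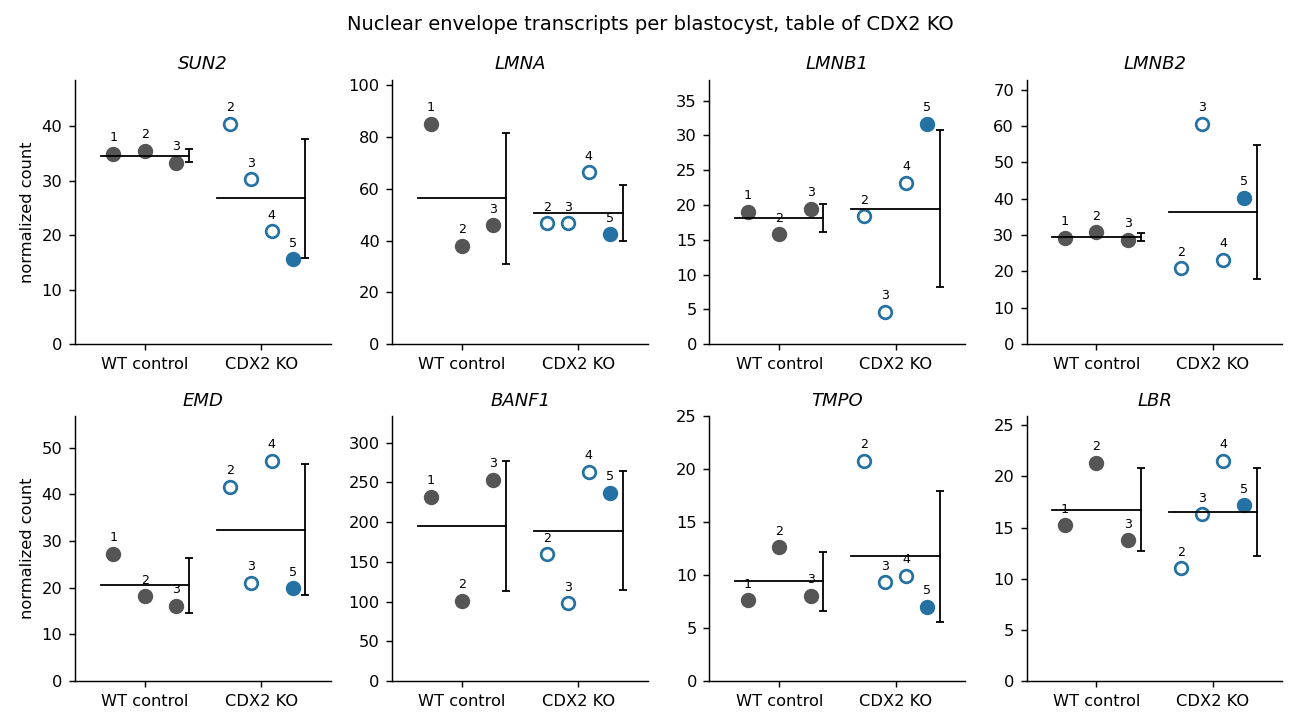
Normalized count (vertical axes, from 0) of the same 8 transcripts in each blastocyst of the table of CDX2 KO, drawn as in the plot for GATA3 KO. Every transcript overlaps between the groups, and embryo 3 has the lowest *LMNB1* value, 4.66, and the highest *LMNB2* value, 60.6.

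*EMD* (NM_203361), which encodes the LEM-domain protein emerin, had 21.3, 14.0 and 12.4 normalized counts in the WT control embryos. It had 24.6, 21.5, 34.5 and 4.11 in GATA3 KO embryos 3 to 6. Embryos 3, 4 and 5 lay above every control embryo and embryo 6 below every one, and the log2 fold change was 0.12 with a standard error of 0.50. Without single embryos it ran from -0.20 (without GATA3 KO embryo 5) to 0.73 (without GATA3 KO embryo 6). *EMD* is X-linked in the ARS-UCD2.0 annotation, and the embryos differed in the counts of 4 Y-linked transcripts (*DDX3Y*, *EIF1AY*, *TSPY* and *USP9Y*). WT control embryos 1 to 3 had 50, 98 and 29 such counts and GATA3 KO embryo 6 had 68, but GATA3 KO embryos 3, 4 and 5 had 0, 0 and 2. The *EMD* values of the embryos with at most 2 Y-linked counts, 21.5 to 34.5, thus lay above those of the others, 4.11 to 21.3. Adjusted for the presence of Y-linked counts, *EMD* stood at -1.69 on the log2 scale, a value that rests on GATA3 KO embryo 6 alone.

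Beside the CDX2 KO embryos, *EMD* had 27.3, 18.2 and 16.0 normalized counts in WT control and 41.7, 21.0, 47.3 and 19.9 in CDX2 KO embryos 2 to 5. Embryos 2 and 4 lay above the controls, and embryos 3 and 5 within their range. Y-linked counts were 155 in embryo 5 and 0 in embryos 2, 3 and 4. The log2 fold change of 0.57 was the largest of the 8 transcripts in this table, with a standard error of 0.44 and a 95% interval of -0.39 to 1.53 (adjusted p = 0.900 from limma). With the Y-linked covariate it was -0.01, which rests on embryo 5 alone. In this table the values did not separate by Y-linked counts, since embryo 3 at 21.0 lay below WT control embryo 1 at 27.3.

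*BANF1* (NM_182988), which encodes BAF, had 154, 74.6 and 185 normalized counts in WT control and 109, 137, 131 and 141 in GATA3 KO embryos 3 to 6. All 4 KO embryos lay within the control range, which WT control embryo 2 widened downwards. On the log2 scale the groups differed by 0.00 with a standard error of 0.29, by -0.39 without WT control embryo 2 and by 0.26 without WT control embryo 3. The spread among the control embryos, 41.3%, stood beside 9.30% from counting error. Beside the CDX2 KO embryos the control values were 232, 101 and 253 and the KO values 159, 97.9, 264 and 237 in embryos 2 to 5, a difference of -0.04 on the log2 scale with a standard error of 0.48 (limma, adjusted p = 0.992).

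*TMPO* (NM_001098005), which encodes the LAP2 proteins, had a mean of 9.47 over the table of GATA3 KO, under the 10 required for the fit. Its normalized counts were 5.52, 11.9 and 6.22 in WT control and 20.3, 10.8, 8.34 and 3.28 in GATA3 KO embryos 3 to 6, from 4 to 25 counts. Embryo 3 was highest and embryo 6 lowest. The difference in mean log2 was 0.24, and without embryo 3 it was -0.12. *TMPO* in the table of CDX2 KO had 7.61, 12.6 and 8.02 in WT control and 20.8, 9.32, 9.95 and 6.98 in CDX2 KO embryos, and its log2 fold change there was 0.22 ± 0.59 (standard error; limma, adjusted p = 0.954). Here embryo 2 alone exceeded the controls, and without it the value was -0.08.

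*LBR* (NM_001100329), the lamin B receptor, had 9.47, 16.2 and 9.33 normalized counts in WT control and 17.4, 18.5, 11.9 and 11.5 in GATA3 KO embryos 3 to 6. Embryos 3 and 4 exceeded every control embryo and none lay below them. On the log2 scale the difference was 0.33 with a standard error of 0.38, or 0.22 relative to all tested transcripts. Beside the CDX2 KO embryos, *LBR* had 15.2, 21.3 and 13.8 in WT control and 11.0, 16.3, 21.6 and 17.2 in CDX2 KO embryos. Here the log2 fold change was -0.03 ± 0.42 (standard error; limma, adjusted p = 0.992), and the 95% interval ran from 0.521 to 1.84 times the control level.

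Over the whole GATA3 KO table, 2.01% of 4271 tested transcripts met the threshold, for which the adjusted p must not exceed 0.05 and the fold change must reach 1.5 upwards or 0.6 downwards, and 0.468% did so as lower in the KO embryos. *SUN2* was chosen as one of these, so nothing is read from its place among them. The groups lay apart for 18.9% of all transcripts tested, 7.05% with the KO embryos lower, and of the 8 envelope transcripts for *SUN2* alone, from which nothing is read either. The log2 fold changes of the 6 other fitted transcripts ran from -0.18 to 0.33. Each of their 95% intervals reached a fold change of 1.5 upwards or 0.6 downwards, and the widest, that of *EMD*, ran from 0.522 to 2.27 times the control level.

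Beside the CDX2 KO embryos, 0 of the 8 transcripts passed the threshold with limma, edgeR or DESeq2, and 0 had an unadjusted p under 0.05 with limma. Of all 5719 transcripts tested, 0% passed with limma, 187 (3.27%) had an unadjusted p under 0.05, edgeR called 1 and DESeq2 called 10. The groups overlapped for all 8, while they lay apart for 5.88% of all transcripts tested, 3.36% with the KO embryos lower and 2.52% with them higher. The 2 comparisons share their control embryos, and *SUN2* stood at -1.83 in GATA3 KO and at -0.44 in CDX2 KO. Whether these effects differ was not tested, because the tables were normalized separately.

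**Figure D5:**
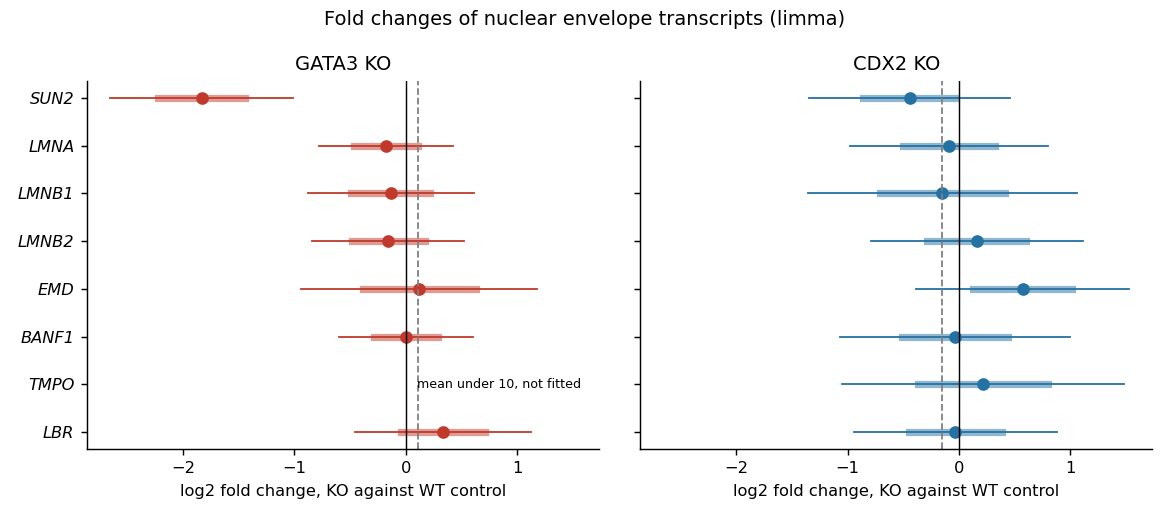
Log2 fold change of each envelope transcript (horizontal axes, KO against WT control) from limma, with thick bars for the standard error and thin bars for the 95% interval. Dashed lines show the median of all transcripts tested, 0.11 in GATA3 KO and -0.15 in CDX2 KO; *SUN2* in GATA3 KO, chosen for that value, stands at -1.83, and *TMPO* was not fitted there.

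Beyond these genes, 5 lists written for the rest of the nuclear envelope and its traffic held 88 genes. The GATA3 KO table listed 71 of them and 51 were tested, of which with limma 1 rose and 0 fell past the threshold, where 2.01% of all transcripts passed it. Other tools and scalings also called list genes as lower, with 1 higher and 1 lower by edgeR and 1 higher and 2 lower by DESeq2. The gene that rose with limma was *XPO1*, the main exportin that carries proteins out of the nucleus. It had 40.2, 41.1 and 46.6 normalized counts in WT control and 103, 102, 84.6 and 87.0 in GATA3 KO embryos 3 to 6, so the groups lay apart. Its log2 fold change was 1.12 with a standard error of 0.24 (adjusted p = 0.0245 from limma). The adjusted p rose above 0.05 without WT control embryo 2 (0.103), WT control embryo 3 (0.0620), GATA3 KO embryo 3 (0.0869) or GATA3 KO embryo 4 (0.0875), and it was 0.0863 without the trend and 0.301 with the Y-linked covariate. In these 6 settings the fold change itself stayed between 1.02 and 1.19 on the log2 scale. In CDX2 KO, *XPO1* stood at -0.25 on the log2 scale (limma, adjusted p = 0.933).

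The nuclear pore complex was the longest of these lists, with 25 of 31 genes tested in the table of GATA3 KO. The median log2 fold change was 0.29, against 0.11 for all transcripts tested, and 0 passed the threshold with limma, while 8 had an unadjusted p under 0.05 where 22.6% of all transcripts did. WT control and KO embryos lay apart for 7 of the 25, or 28.0%, against 18.9% of all tested, with 4 higher and 3 lower in the KO embryos. Over the 51 tested genes of all lists the share was 19.6%, near that of all transcripts. The following genes were chosen after their values were seen. *NUP214*, a nucleoporin of the cytoplasmic filaments, stood at -1.12 on the log2 scale (limma, adjusted p = 0.0518). *NUP37* and *SEH1L*, both of the Y-shaped scaffold complex, had 1.59 and 0.92 (adjusted p = 0.0533 and 0.0870 from limma). Tested transcripts needed a mean of at least 10 over all embryos, which *NUP37* reached through the KO embryos. Its mean was 5.78 in WT control and 19.2 in GATA3 KO embryos. The 3.24 normalized counts of *NUP37* in WT control embryo 2 lay at the floor of detection. *RANGAP1*, of the transport list, activates the GTPase of RAN on the cytoplasmic side of the pore and stood at -1.45 (adjusted p = 0.0687 from limma). The groups did not overlap for any of these 4 genes, from which nothing is read because the genes were chosen with their values known.

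Coverage of the other lists was uneven beside the GATA3 KO embryos. Of 21 LINC and LEM partners 3 were tested, with a median log2 fold change of -0.36. The groups lay apart for 1 of the 3, *MATR3*, where they did for 18.9% of all transcripts tested. *MATR3*, which encodes the nuclear matrix protein matrin 3, had 99.4, 99.4 and 115.0 normalized counts in WT control. It had 127, 115.5, 145 and 176 in GATA3 KO embryos 3 to 6 (log2 fold change 0.41, adjusted p = 0.311 from limma). The gap is that between 115.0 in WT control embryo 3 and 115.5 in GATA3 KO embryo 4. *SYNE2*, which encodes the SUN-binding nesprin 2, was outside the naming rule and is given as a partner of *SUN2*. It had 35.5, 60.5 and 32.6 normalized counts in WT control and 36.2, 18.5, 15.5 and 73.1 in GATA3 KO embryos 3 to 6, with embryos 4 and 5 below every control and embryo 6 above (log2 fold change -0.46; limma, adjusted p = 0.532). Of 9 genes for lamin processing and binding 3 were tested, with a median of 0.13, and of 11 genes for sealing the envelope after mitosis 6 were tested, with a median of 0.37. Nuclear transport had 14 of 16 tested and a median of 0.22. The groups lay apart for 14.3% of the tested transport genes, 0% of those for lamin processing and 0% of those for sealing. In these 4 lists *XPO1* was the one gene past the threshold with limma as reported. Without single embryos the medians ran from -0.63 to -0.14 for LINC and LEM partners, 0.00 to 0.24 for lamin processing, 0.27 to 0.57 for sealing, 0.14 to 0.27 for transport and 0.19 to 0.32 for the pore. With the Y-linked covariate, which rests on GATA3 KO embryo 6, they were 0.75, 0.55, -0.03, 0.26 and 0.54, against 0.13 for all transcripts tested.

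Of the same lists, 73 of the 88 genes were listed in the table of CDX2 KO and 58 were tested. Here 0 passed the threshold with limma, edgeR or DESeq2, where of all 5719 transcripts tested limma called 0%, edgeR 1 and DESeq2 10. With limma 0 had an unadjusted p under 0.05, where 3.27% of all transcripts did. The groups lay apart for 3.45% of the 58 genes, against 5.88% of all transcripts tested. The median of the nuclear pore list was -0.26 and that of the nuclear transport list -0.65, against -0.15 for all transcripts tested. The medians were 0.09 for LINC and LEM partners, -0.27 for lamin processing and -0.15 for sealing. Without single embryos they ran from 0.12 to 0.37 (without CDX2 KO embryo 5), from -0.53 (without WT control embryo 3) to -0.09 (without CDX2 KO embryo 2), and from -0.24 (without CDX2 KO embryo 2) to 0.09 (without WT control embryo 1). The transport median was -0.32 without CDX2 KO embryo 3 and -0.96 without embryo 5, and the pore median ran from -0.28 to -0.12 without single embryos. With the Y-linked covariate, which rests on embryo 5, transport stood at 0.19 and the pore at 0.16, against 0.10 for all transcripts tested. In that setting LINC and LEM partners stood at 0.12, lamin processing at 0.07 and sealing at -0.17. *SYNE2* had 53.3, 69.5 and 44.7 normalized counts in WT control and 67.4, 123, 57.2 and 62.8 in CDX2 KO embryos 2 to 5, with embryo 3 above every control (log2 fold change 0.42, adjusted p = 0.900 from limma).

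The transcripts most like *SUN2* were sought by Pearson's r of log2(normalized count + 1) over 7 embryos, given as a description. Beside the GATA3 KO embryos, *MAN2A2* (r = 0.990), *SREBF2* (0.987), *UNC5B* (0.973), *H2AX* (0.967) and *ASPM* (0.964) came first among 4270 transcripts. In the table of CDX2 KO, NM_001102157 (0.958), *ASPM* (0.946), *SCARB1* (0.942), *SBNO2* (0.942) and *ALDH3A2* (0.925) came first among 5718. For the first 5, r in the table of CDX2 KO was 0.49 for *MAN2A2*, 0.38 for *SREBF2*, 0.31 for *UNC5B*, 0.22 for *H2AX* and 0.95 for *ASPM*, with the control embryos shared. For those that came first in the table of CDX2 KO, r beside the GATA3 KO embryos was 0.62 for NM_001102157, 0.96 for *ASPM*, 0.61 for *SCARB1*, 0.88 for *SBNO2* and 0.90 for *ALDH3A2*. Over 3 control and 4 KO embryos, r includes the gap between the groups for which *SUN2* was chosen. *ASPM* encodes a protein of the mitotic spindle poles and *SREBF2* a transcription factor of cholesterol synthesis. With the other envelope transcripts, r with *SUN2* ran from -0.49 for *LBR* to 0.47 for *LMNB2* beside the GATA3 KO embryos, and from -0.49 for *LBR* to 0.56 for *TMPO* in that of CDX2 KO.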

How the data were processed

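Single-blastocyst Smart-seq2 reads were, per the labels and the study's methods, trimmed with Trimmomatic 0.39, mapped to ARS-UCD1.2 with HISAT2 2.1.0, counted with featureCounts 1.6.3 and normalized with DESeq2. The authors deposited normalized counts per transcript (a signal, each count divided by a size factor within its table), from which whole counts were recovered for 100.0% of values (tolerance 0.01). The mean, log2 fold changes, score (Wald statistic) and p-values that the authors also deposited were not used.

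Accessions were named through RefSeq of ARS-UCD2.0 (98.6% in each table). Columns of the controls were assigned by their number, those of the KO embryos to the group only. Transcripts with a mean of at least 10 were tested with limma 3.58.1 (R 4.3.3, trended prior) on log2(normalized count + 1), which understates changes of low transcripts, with Benjamini-Hochberg adjustment. Single embryos were the replicates. Alternatives used edgeR 4.0.16, DESeq2 1.42.0, other pseudocounts (0.1, 5), filters and scalings, a Y-linked covariate (at least 3 counts) and leaving out each embryo. The code was tested on simulated data. The genes, lists and naming rule (all 9 genes, list genes past the threshold, the 5 most like *SUN2*, *GATA3* and *CDX2*) were chosen with earlier results of these data known. The other list genes named, *SYNE2*, *MATR3*, *NUP214*, *NUP37*, *SEH1L* and *RANGAP1*, fall outside that rule. Tables and intervals were computed with Python 3.11.15 and scipy 1.17.1. Total counts of 100731 to 662962 per embryo limited precision for transcripts with few counts.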

Additional observations from a re-analysis of the deposited data

How the results depend on the processing

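*SUN2* in GATA3 KO stayed between -2.03 and -1.41 (log2) in all 16 alternatives that give a value, and only a pseudocount of 5 moved it, to -1.41, by more than 0.33, the SD between embryos of a group. Without single embryos it ran from -2.0 to -1.67, in refits of the same embryos in which *SUN2* was chosen. In CDX2 KO it ran from -1.10 to -0.22 with an adjusted p of 0.834 or more from limma, edgeR or DESeq2. With a mean of at least 100, *BANF1* alone of the 8 transcripts could be fitted. The number of transcripts past the threshold in GATA3 KO, 86, became 145 with a pseudocount of 5, 172 without a filter, 37 with a mean of at least 100, 16 without the trend, 158 with DESeq2, 1 with the Y-linked covariate, and 1 to 293 without single embryos. In CDX2 KO, 0 became 1 with a pseudocount of 5, a mean of at least 100, rescaling by median ratios or edgeR, 2 without a filter or after quantile normalization, 10 with DESeq2, and 0 to 1 without single embryos. For the 88 list genes in GATA3 KO, 1 became 3 with a pseudocount of 5 or DESeq2, 4 without a filter, 2 after quantile normalization, rescaling or with edgeR, and 0 with a mean of at least 100, without the trend or with the Y-linked covariate (0 to 4 without single embryos). As lower in KO, 2 were called with DESeq2 and 1 each with a pseudocount of 5, without a filter, after quantile normalization or rescaling and with edgeR. Quantile normalization moved the median of all transcripts tested from 0.113 to 0.003 in GATA3 KO and from -0.151 to -0.036 in CDX2 KO. The share of higher among the called transcripts in GATA3 KO changed with it, from 66 of 86 to 48 of 105.

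Signs of values that passed no test turned in CDX2 KO. *LMNA* was 0.12 after quantile normalization and 0.04 after rescaling, and *BANF1* was 0.34 and 0.10. *LBR* was 0.09 after rescaling. With edgeR *LMNB1*, *BANF1* and *LBR* were 0.24, 0.05 and 0.05, and with DESeq2 0.26, 0.07 and 0.07. With the Y-linked covariate *LMNB1*, *EMD*, *BANF1*, *TMPO* and *LBR* were 0.78, -0.01, 0.38, -0.35 and 0.06. Without single embryos, values ran from -0.32 to 0.25 for *LMNA*, from -0.46 to 0.38 for *LMNB1*, from -0.13 to 0.37 for *LMNB2*, from -0.45 to 0.25 for *BANF1*, from -0.08 to 0.43 for *TMPO* and from -0.17 to 0.14 for *LBR*. The cause was not tested. None of the 8 was called in CDX2 KO under any alternative. No paired analysis was possible because the replicate numbers of the labels are not those of the KO columns.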

Other observations

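The same 3 WT control embryos have more counts in the table of CDX2 KO than in that of GATA3 KO, by a median of 1.83 times over 4204 transcripts with at least 30 counts in the latter (5th to 95th percentile 1.64 to 1.93). Of the envelope transcripts *LMNB1* (1.52 times, from 44 to 67 counts) and *TMPO* (1.59 times, from 22 to 35 counts) gained least and *LBR* (1.91 times, from 33 to 63 counts) most, while *SUN2* gained 1.77 times. Values of the 2 tables are therefore not on one scale, gene by gene as well as overall. The counting error follows the counts, at 21.0% for *SUN2* in WT control in the table of GATA3 KO and 15.7% in that of CDX2 KO. Counting errors and the Poisson and Wilson intervals thus hold only for the counts of their own table. Which counts lie nearer to the reads sequenced was not tested.

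The control embryos agreed within counting error for *SUN2* and *LMNB2*, with a coefficient of variation in the table of CDX2 KO of 3.40% and 3.80% against 15.7% and 17.0% from counting alone. For *LMNA* and *BANF1* they did not, at 44.8% and 42.1% against 12.0% and 6.70%. WT control embryo 1 was high in *LMNA* and embryo 2 low in *BANF1* in both tables, which hold the same libraries.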
